A study of Mus musculus with 47 samples.

Results

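In mouse liver, 630 of 3217 CLK:BMAL1 ChIP-seq peaks (19.6%, exact binomial 95% interval 18.2% to 21%) lay so close to another peak that the 3 kb windows around their middles overlapped. They were chosen from positions alone. The list was sorted by chromosome and window start, and a peak was kept where its window overlapped or touched the window before or after it on the same chromosome. The kept peaks formed 281 clusters and are called clustered peaks here. The other 2587 peaks had no such neighbour. The study measured nucleosomes by MNase-seq, in which micrococcal nuclease removes unprotected DNA, in 47 liver libraries, each from 1 mouse. Livers came from adult C57BL/6 mice, aged 3 to 6 months, held for 2 weeks or more in 12 h light and 12 h dark. They were taken at ZT02, ZT06, ZT10, ZT14, ZT18 and ZT22, where zeitgeber time (ZT) counts the hours from the start of light. Wild-type mice gave 4 libraries at each time. Bmal1-/- mice, labelled BM, gave 4 at each time except ZT22, where 3 were analysed here. The labels name no agent for either genotype and do not describe the Bmal1 allele, and set averages over binding sites hold no value that could check the deletion.

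CLOCK (CLK) and BMAL1 (also called ARNTL) bind DNA together as the activator of the mammalian circadian clock. They bind E-box motifs near genes of the clock itself, among them the Period and Cryptochrome repressors and the Rev-erb nuclear receptors, and near many output genes of the liver. E-boxes can occur in tandem, and 1 gene can carry several binding sites in its promoter and introns. The deposited list gives each peak a position in the mm9 genome build and 1 genomic class, with no gene name and no score. Clusters are therefore named by position, and no sequence was read, because the genome at hand was of another build. The order of the list is treated as a position from 1 to 3217, and the sources used here do not say what was ranked; a decile here is a run of 321 or 322 successive entries. Peak width falls along the list (median 389.5 bp for unclustered peaks of the first decile and 229 bp for those of the last).

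The clusters that stand earliest in the list are described first. They were picked for that position and are not typical. Over all 281 clusters the median earliest position was 777, and 17.4% held 3 or more peaks. The peak at position 1 is the first of 3 peaks at chr7:52960041-52963430. It is 719 bp wide and classed as TSS (at a transcription start site), and it is the widest of all clustered peaks. The other 2 peaks of that cluster are classed as intron, stand at positions 18 and 5, and are 529 and 619 bp wide. Edges of neighbouring peaks in this cluster lay 441 and 1081 bp apart. All 3 members thus stood within the first 18 entries of the list.

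The peak at position 2 belongs to 4 peaks at chr11:68908211-68912611, all classed as intergenic within 10 kb of a gene. Their positions from left to right were 2, 8, 876 and 29. This cluster had the longest span of the 281, at 4400 bp, and its first 2 peaks were separated by 10 bp. A second cluster of chromosome 11, at chr11:98634141-98637181, held 5 peaks at positions 72, 10, 11, 7 and 38. Its first 3 peaks are intronic and its last 2 are at a start site. Each of its 5 members lay in the first decile of the list, whereas at chr3:95685771-95687090 only 2 of 4 did. The chromosome 3 cluster was the most compact of the clusters with 4 peaks named here. Its positions were 2277, 4, 299 and 668, and its neighbouring edges overlapped by 10 bp or lay 10 bp apart, so that the 4 peaks covered 1319 bp without a break wider than 10 bp.

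In the remaining early clusters an early entry of the list stood beside a later one. At chr2:92261911-92264240, 2 intron peaks stood at positions 2070 and 9. At chr1:93355801-93356600, 2 TSS peaks at positions 13 and 1125 overlapped by 189 bp. At chr3:41368311-41369091, intron peaks at positions 15 and 436 were 80 bp apart. The 4 peaks at chr19:23209351-23211460 had positions 2185, 20, 277 and 2281, and the last of them, 180 bp wide, lay inside the 519 bp peak at position 277. The intron pair at chr14:70026091-70027370 had positions 1130 and 24, and the pair at chr17:29533711-29535640, more than 10 kb from a gene, had positions 25 and 518. These 6 clusters range from 780 to 2329 bp in span.

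The clusters with most peaks were not all early. The only cluster of 6 peaks, at chr1:193268131-193270650, was classed as intergenic beyond 10 kb throughout, and its positions were 479, 2656, 1202, 260, 184 and 2197 over 2519 bp. The other cluster of 5, at chr9:43891521-43894301, was wholly intronic. Its positions were 2509, 2038, 2800, 3210 and 117, so 4 of its 5 peaks stood in deciles 7 to 10 of the list. The peak at position 3210 is 100 bp wide and lies between peaks with gaps of 50 and 10 bp.

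**Figure D1:**
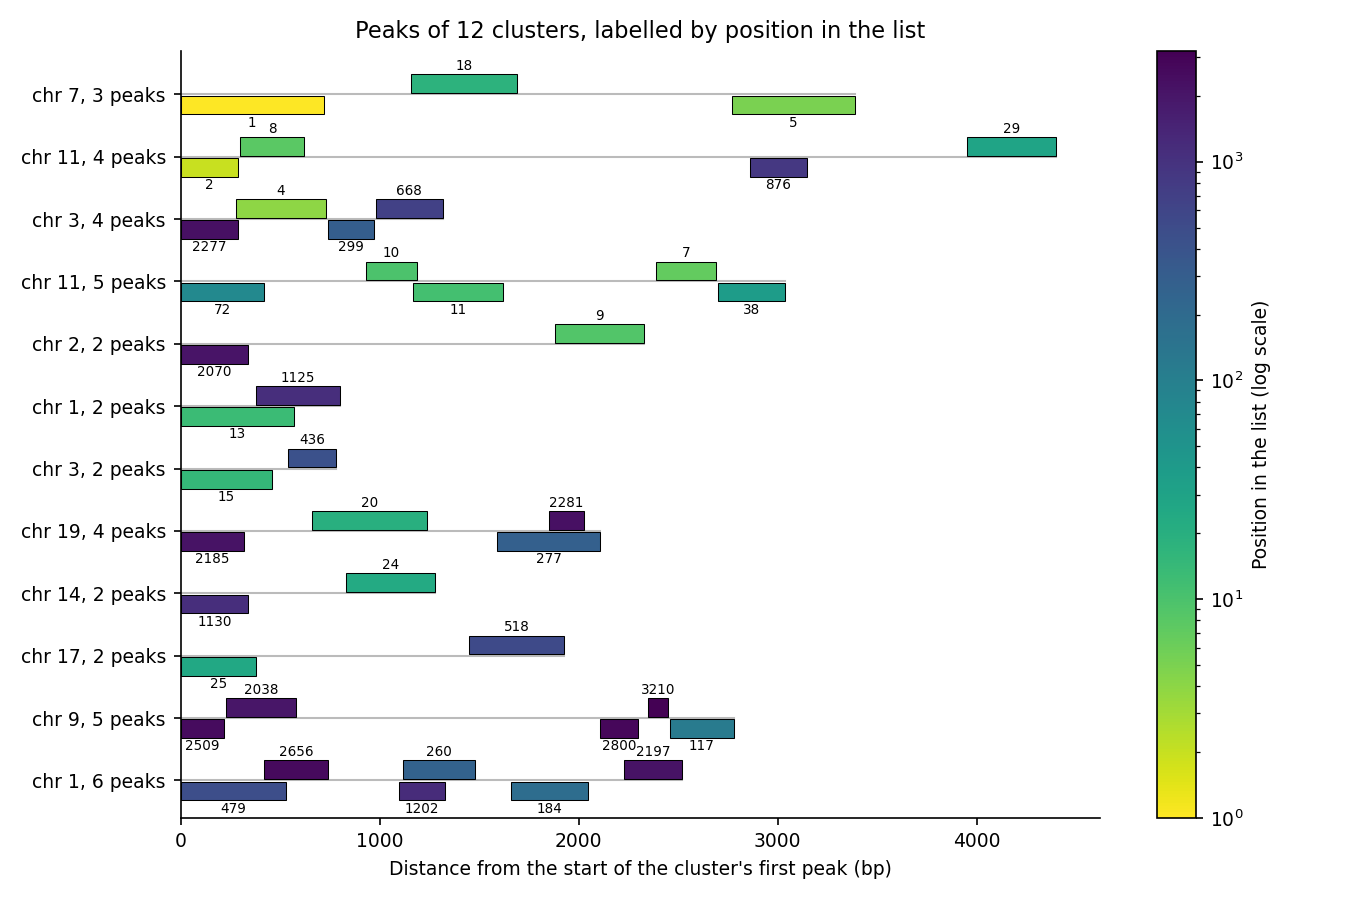
Maps of 12 clusters, each row a cluster with its chromosome and number of peaks. Boxes are peaks to scale along the x axis (bp from the start of the cluster's first peak), drawn above and below the line in turn, with the list position as label and as colour on a log scale. The chromosome 7 and the 5-peak chromosome 11 rows hold only positions up to 72, and every other row reaches position 436 or later.

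Most clusters were small. Pairs made up 232 of 281 clusters (82.6%), 34 held 3 peaks, 12 held 4, 2 held 5 and 1 held 6. The 49 clusters of 3 or more peaks held 166 of the 630 clustered peaks (26.3%). With every cluster counted once, the 3217 peaks came to 2868 separate loci. These counts follow from the 3 kb rule and are a description.

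Neighbouring peaks within clusters were mostly much closer than the rule required. The 349 pairs of successive clustered peaks had a median distance between middles of 440 bp (order-statistic 95% interval 375 to 590 bp), with quartiles of 260 and 1345 bp. The rule would have admitted distances up to 3000 bp. The density of pairs fell with distance, from 368 pairs per kb below 500 bp (184 pairs) to 114 between 500 and 1000 bp, 66 between 1000 and 2000 bp and 42 between 2000 and 3000 bp. Beyond the rule it was 37 per kb between 3 and 4 kb, 40 between 4 and 5 kb and 26.5 between 6 and 10 kb. No break in density thus marks the 3 kb limit, and density was highest below 500 bp.

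The widest admitted distances were 2960, 2990 and 2990 bp. The first joined 2 gene body peaks outside introns, the next an intron and a gene body peak, and the last, at chr4:102479781-102483110, intron peaks at positions 3139 and 726. The nearest pairs that were not admitted lay 3030, 3040 and 3040 bp apart, all of them 2 intron peaks. One of these, at chr9:15105781-15109121, joined positions 1323 and 3192. At the other extreme, the middles of 2 intergenic peaks within 10 kb of a gene on chromosome 16 were 5 bp apart, the 200 bp peak at position 2533 lying inside the 309 bp peak at position 1727. The next closest pairs were 2 TSS peaks on chromosome 5 at positions 613 and 624, 15 bp apart, and 2 intron peaks on chromosome 10 at positions 702 and 720, 25 bp apart. Both of these pairs overlapped by 389 bp.

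Edge gaps showed a sharp single value. Of the 349 pairs, 64 overlapped (18.3%), by a median of 154 bp (range 9 to 389), and in 11 of these 1 peak lay wholly inside the other. A further 69 pairs (19.8%) had a gap of exactly 10 bp, against 1 pair with a gap of 11 to 19 bp and 5 pairs with a gap of 20 to 29 bp. All peak starts in the list fall on a 10 bp grid, so this gap is 1 step of the grid. Peak ends carry 2 last digits. They end in 0 for 2503 peaks and in 1 for 714 (22.2%), and on this grid a gap of exactly 10 bp requires a left peak that ends in 1. The left peak ended in 1 in 40 of 64 overlapping pairs (62.5%) and in 67 of 212 pairs with a gap above 10 bp (31.6%, 25.4% to 38.3%). Among unclustered peaks 18.7% (17.2% to 20.3%) ended in 1. How the peaks were called, and whether neighbouring calls were split or merged, is not stated in those sources.

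**Figure D2:**
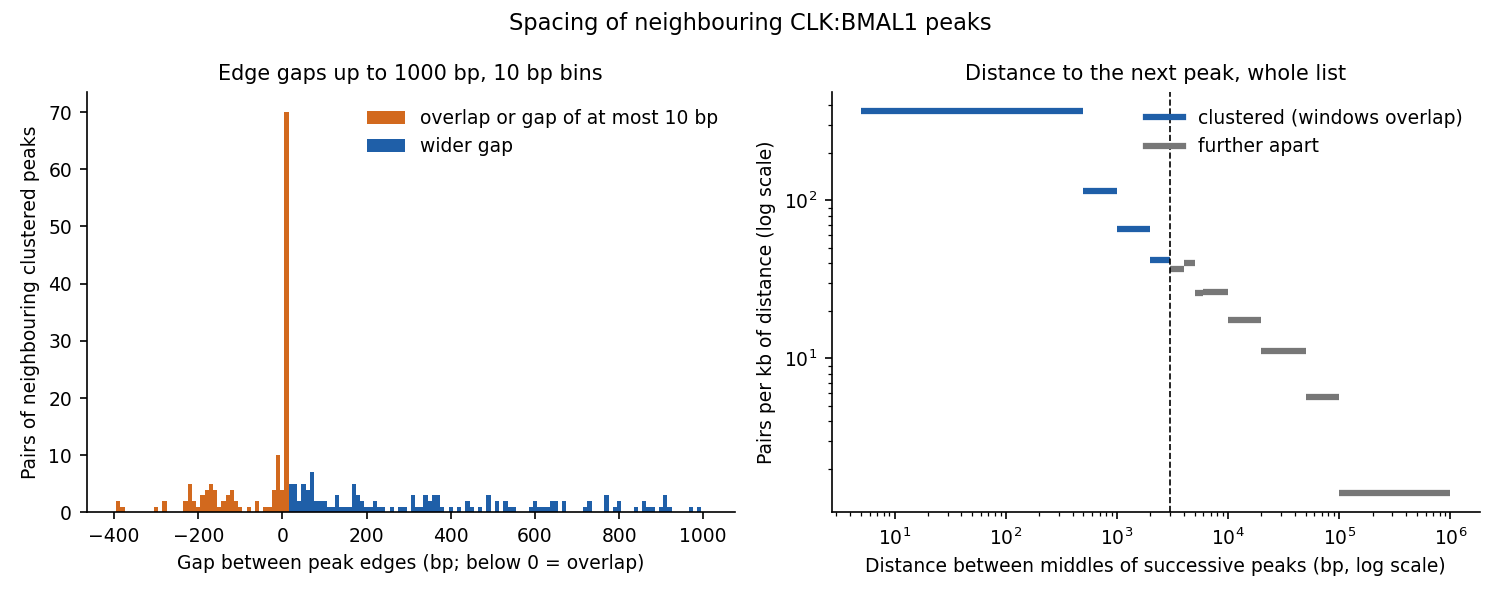
Left, number of successive clustered pairs by edge gap in bins of 10 bp (x axis, bp, negative for overlap); the single tall bar stands at 10 bp. Right, pairs per kb of distance against the distance between middles of successive peaks for the whole list, both axes logarithmic, with the 3000 bp limit dashed; density goes from 368 per kb below 500 bp to 42 just inside the limit and 37 just outside.

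Pairs that overlapped or lay within 10 bp of each other, called touching here, numbered 137 of 349 (39.3%, 34.1% to 44.6%) and involved 261 of the 630 clustered peaks (41.4%). Joined into continuous stretches, they gave 124 stretches, 113 of 2 peaks, 9 of 3 and 2 of 4. The stretches had a median width of 530 bp (499 to 569, range 309 to 1319), against 309 bp for the 2956 peaks that touched no other. Of the 281 clusters, 95 (33.8%) consisted of 1 such stretch and 186 (66.2%) of 2 or more separate stretches. The 212 pairs with a gap above 10 bp had a median distance between middles of 1040 bp and a median gap of 696 bp. Applied anew to the 3080 stretches and single peaks, the rule kept 396 (12.9%, 11.7% to 14.1%), so the share of the list in clusters depends on how touching peaks are counted.

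Clustered peaks were spread over the genomic classes broadly as the other peaks were, with the widest differences among intergenic sites. Among TSS peaks 113 of 583 were clustered (19.4%, 16.3% to 22.8%), among intron peaks 279 of 1412 (19.8%, 17.7% to 21.9%) and among other gene body peaks 40 of 211 (19%, 13.9% to 24.9%). The share was 26.2% (77 of 294, 21.3% to 31.6%) for intergenic peaks less than 10 kb from a gene and 16.9% (121 of 717, 14.2% to 19.8%) for those farther away. Seen the other way, intergenic peaks within 10 kb made up 12.2% of clustered and 8.39% of other peaks, a difference of 3.83 percentage points (Newcombe 95% interval 1.24 to 6.80). Without chromosome 7 it was 2.09 (-0.477 to 5.08), an interval that holds 0. Intergenic peaks beyond 10 kb made up 19.2% and 23%, a difference of -3.83 (-7.16 to -0.209). With 1 peak a cluster this became -4.18 (-8.64 to 1.05), and with window overlaps of at least 1500 bp it was -2.0 (-5.68 to 2.06), both with intervals that hold 0, whereas joining touching peaks gave -7.73 (-11.3 to -3.55). Without chromosome 7 it was -2.47 (-6.04 to 1.42), and leaving out any 1 of 9 other chromosomes also brought 0 into the interval, so neither intergenic difference was firm. For TSS peaks the difference was -0.231 (-3.42 to 3.27), or -3.40 (-6.24 to -0.341) with 6 kb windows, and for intron peaks 0.490 (-3.80 to 4.83). Peaks of a cluster share their locus, so the intervals cover counting error only and are too narrow as a statement on loci. No p-value was computed, since peaks are not replicates.

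In this list the 2 intergenic classes differed mainly in clustered peaks that touched no other. No interval was computed for this split, and it was not repeated without each chromosome. Among intergenic peaks nearer than 10 kb, 14.6% were clustered without touching another peak and 11.6% touched one. Beyond 10 kb these shares were 7.53% and 9.34%. Peaks far from genes were the only class in which more clustered peaks touched a neighbour (67) than did not (54). In introns 99 touched and 180 did not, and at start sites 44 touched and 69 did not.

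Neighbours in a cluster were usually of 1 class. Both peaks had the same class in 291 of 349 pairs (83.4%, 79.1% to 87.1%), from 93.5% (88.9% to 96.6%) of pairs up to 500 bp apart to 71.4% (55.4% to 84.3%) of those 2000 to 3000 bp apart. In successive peaks outside clusters the share was 67% between 3 and 6 kb, 47% between 10 and 50 kb and 31.6% beyond 50 kb. Same-class neighbours thus were rarer at longer distances, inside the rule mainly between the pairs up to 500 bp and the rest. The commonest pairs were 2 introns (137), 2 intergenic peaks beyond 10 kb (67), 2 TSS peaks (37) and 2 intergenic peaks within 10 kb (35). Within the shared class, 20 of 37 TSS pairs touched, with a median distance of 330 bp, and 50 of 137 intron pairs, with a median of 545 bp.

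Mixed clusters mostly joined a start site to the DNA beside it. A TSS peak was paired with an intron peak 26 times (median distance 1170 bp, 1 pair touching), with an intergenic peak within 10 kb 12 times (1090 bp) and with another gene body peak 9 times (800 bp). Of the 76 clusters with a TSS peak, 45 (59.2%) also held a peak of another class. Across all 281 clusters 225 held 1 class, 54 held 2 and 2 held 3. By their names, the intergenic classes are set by distance to a gene and the others by a place at or in one. Close neighbours therefore tend to share a class by construction.

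**Figure D3:**
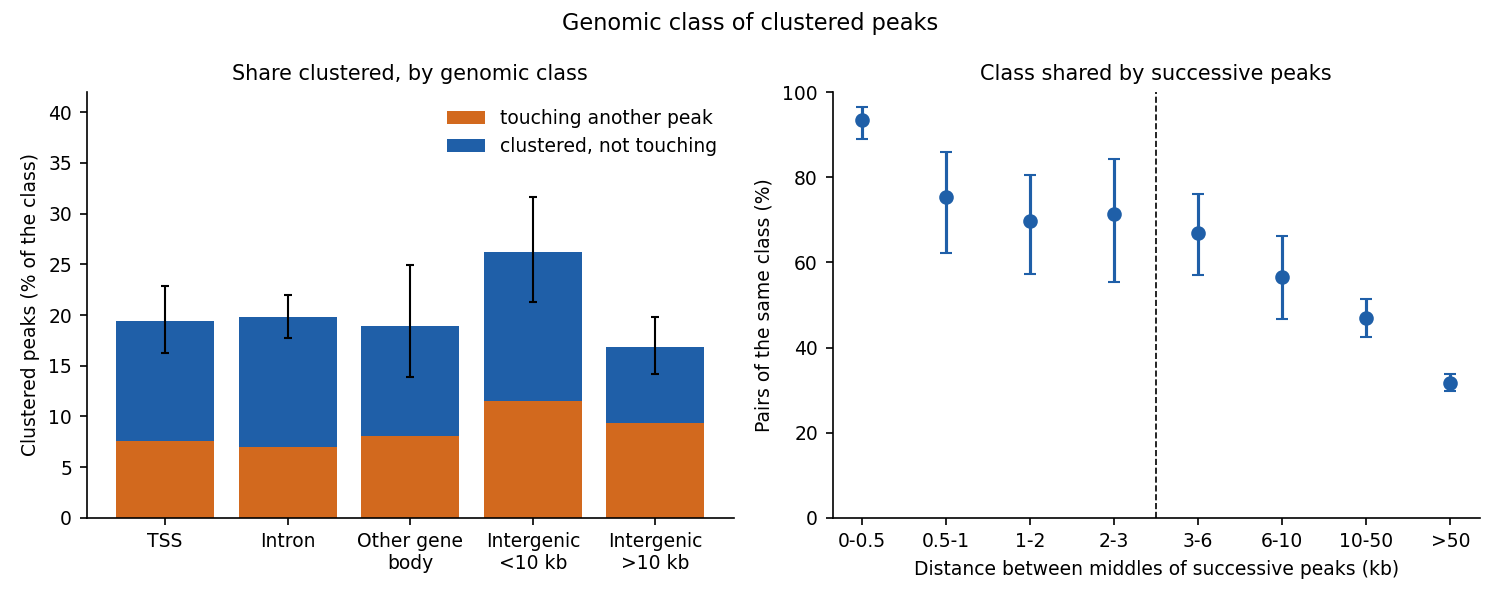
Left, clustered peaks as percent of each genomic class (bars from 0, split into peaks that touch another and those that do not; error bars are exact binomial 95% intervals of the total); the intergenic class within 10 kb stands at 26.2% and that beyond 10 kb at 16.9%. Right, percent of successive pairs that share a class by distance between middles, with the same intervals and the 3 kb limit dashed; it goes from 93.5% to 31.6%.

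Peak width did not separate clustered from other peaks at the median, which was 309 bp in both (290 to 319 and 300 to 309 bp). Within clusters it did differ by kind. Touching peaks had a median of 289 bp (269 to 299) and clustered peaks that touched no other 319 bp (309 to 330). Very narrow peaks were more common in clusters. Widths under 200 bp were found in 56 clustered peaks (8.89%) and 141 others (5.45%), a difference of 3.44 percentage points (1.25 to 6.05), and 36 of the 56 touched another peak. The narrowest was 40 bp wide. Widths of 500 bp or more were equally rare, at 3.81% and 3.90%.

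Width followed list position inside clusters as it did outside. In the first decile of the list clustered peaks had a median width of 419 bp (389 to 449), against 389.5 bp (370 to 409) for the other peaks there. In the last decile the medians were 210 bp (199 to 229) and 229 bp (220 to 239). In touching pairs the peak that stood earlier in the list was the wider in 104 of 137 (75.9%, 67.9% to 82.8%), by a median of 81 bp. The share was 62.7% (55.9% to 69.3%) in clustered pairs with a gap above 10 bp and 65.6% (58.7% to 72%) in successive peaks 3 to 10 kb apart. In the 11 nested pairs the earlier peak was the wider in 11. The widths of successive clustered peaks had a Spearman correlation of 0.0532 over 349 pairs, and those of touching peaks -0.0810 over 137. Both are descriptions, and whether peaks of a locus share a width was not tested.

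Clustered peaks stood out at the head of the list. Of the first 10 entries 8 were clustered, in 5 clusters (80%, 44.4% to 97.5%), of the first 25 it was 15 (60%, 38.7% to 78.9%), of the first 100 it was 40 (40%, 30.3% to 50.3%) and of the first 400 it was 107 (26.8%, 22.5% to 31.4%). In the first decile of the list, positions 1 to 322, 92 peaks were clustered (28.6%, 23.7% to 33.8%). In the other deciles the share ran from 16.5% to 21.7% with no steady trend. The first decile exceeded the rest by 9.99 percentage points (5.11 to 15.3). Peaks of a cluster become clustered together, so these intervals cover counting error only and are too narrow as a statement on loci.

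Touching peaks made up most of that excess. In the first decile 14.3% of peaks touched another and 14.3% were clustered without touching. The difference from the other deciles was 6.86 points (3.31 to 11.2) for the former and 3.13 (-0.478 to 7.51) for the latter. Touching peaks were also frequent in the last decile, at 11.8%, against 4.97% in the sixth. With touching peaks joined and each stretch placed at its earliest member, 17.5% of 314 stretches in the first decile and 12.3% of 2766 others were clustered, a difference of 5.19 (1.17 to 9.93). The excess at the head of the list was smaller, with an interval above 0, when neighbouring calls counted as 1 site. Placing a stretch at its earliest member moves joined stretches up the list by construction. Of the stretches placed in the first decile 12.1% were joined, against 3.11% of the others. The 5.19 points hold that placement, whereas the 3.13 points of clustered peaks that touched no other do not, and their interval held 0. All these intervals count members of a cluster as independent and are too narrow for loci.

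**Figure D4:**
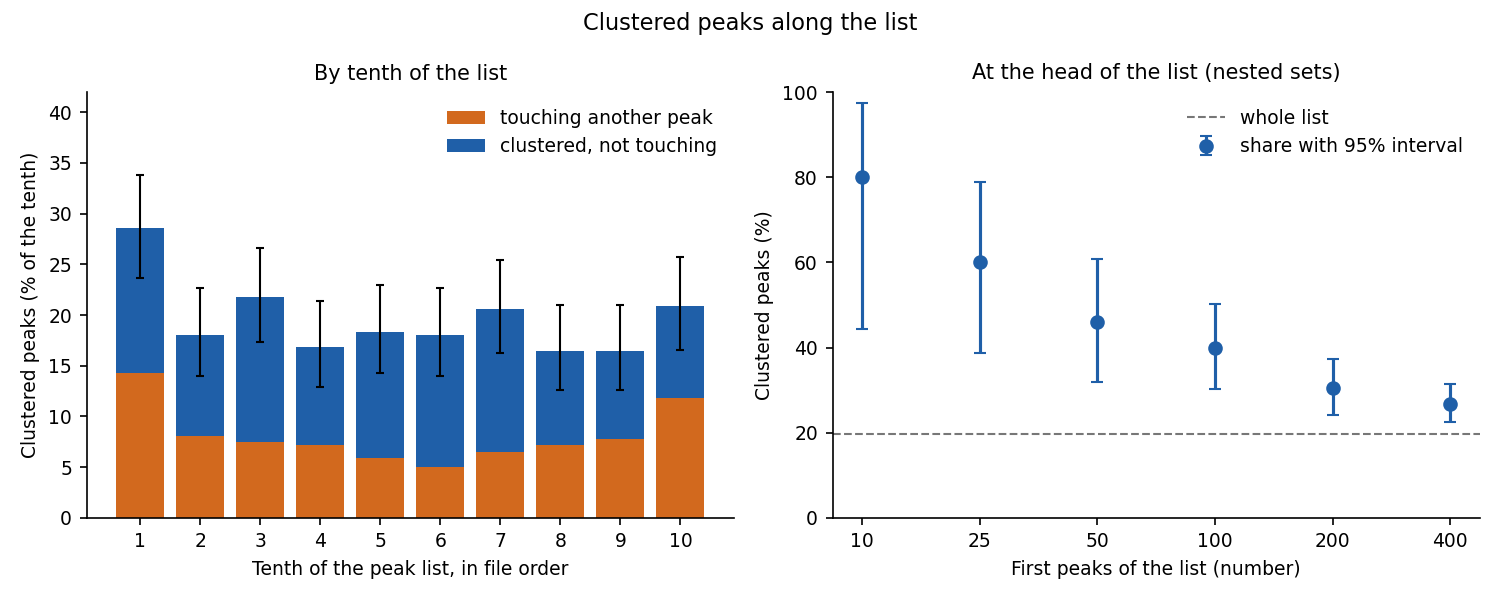
Left, clustered peaks as percent of each decile of the list in file order, split by touching, with exact binomial 95% intervals of the total; the first decile is at 28.6% and the others between 16.5% and 21.7%. Right, percent clustered among the first 10 to 400 entries (nested sets, not independent) with the same intervals and the 19.6% of the whole list dashed.

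Members of a cluster did not stand near each other in the list. The positions of successive clustered peaks had a Spearman correlation of 0.0569 over 349 pairs, and those of successive peaks 3 to 10 kb apart -0.0101 over 209. The median difference of position was 911 entries within clusters, and 929.5 for successive peaks more than 50 kb apart. Clustered peaks late in the list nearly always had an earlier partner, as the ordering itself favours. In the last decile this was so for 63 of 67 clustered peaks (94%), and in the first decile for 18 of 92 (19.6%). Larger clusters more often held a peak of the first decile. More members by themselves give more chances of that, and whether the shares exceed this was not tested. A peak of the first decile was present in 54 of 232 pairs (23.3%), in 10 of 34 clusters of 3 (29.4%) and in 10 of 15 clusters of 4 or more (66.7%, 38.4% to 88.2%). The median position over all members was 1521.5 (1382 to 1651) for clustered and 1632 (1566 to 1691) for other peaks, a difference of -110.5 (-250 to 19). It was -157.5 (-270.5 to -41.5) with 6 kb windows and -193.5 (-306.5 to -84.5) in the earlier 50% of the list with the rule applied anew, both with intervals below 0. The intervals of these 3 differences are the limits of the clustered median less the fixed median of the other peaks. They leave out the error of the latter and are too narrow.

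The share of clustered peaks differed between chromosomes. It was highest on chromosome 15, with 50 of 153 (32.7%, 25.3% to 40.7%), followed by chromosome 3 (26.5%) and chromosome 7 (26.1%). It was lowest on chromosome 13, with 14 of 130 (10.8%, 6.01% to 17.4%), and none of the 10 peaks of the X chromosome was clustered, a count that allows a share of up to 30% (3 counts of the total; the exact binomial upper limit is 30.9%). Chromosome 15 held 20 clusters, and 22 of its 50 clustered peaks were in clusters of 3 or more. The interval held the 19.6% of the whole list on 13 of 20 chromosomes. Peaks of a cluster become clustered together, so these intervals are too narrow as a statement on loci, and that count may be too low. The share did not follow the number of peaks on a chromosome (Spearman -0.002 over the 19 autosomes, a description).

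Clustering puts other binding sites into the windows over which the MNase signal was averaged. The deposited signal is a mean over sets of peaks, so clustered peaks have no signal of their own in it. Of the 3217 windows, 500 (15.5%) held the middle of another peak. Averaged over all windows, another peak covered a given position in 2.11% of windows within 150 bp of the middle, in 2.64% between 150 and 1000 bp and in 1.10% beyond 1000 bp, and most often at 255 bp (4.91%, both sides averaged). For clustered peaks alone these values were 10.8%, 13.5% and 5.59%, with 25.1% at 255 bp. The first decile of the list had the most neighbours in the flank, at 2.49%, and the last decile the fewest, at 0.495%.

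The deciles of the list allow a comparison of share clustered with signal. Relative central signal was the mean signal within 150 bp of the window middle as percent of that beyond 1000 bp, so a low value is a deep trough. In the decile with most clustered peaks, the first, wild-type livers had 65.5% ± 1.7 (SD, n = 4 series, where a series is the mice of 1 replicate number over the 6 times; Bmal1-/- series 8 had 5 libraries, without ZT22), the lowest of the 10 deciles. The Bmal1-/- livers had 77.2% ± 5.15 (n = 4 series grouped by replicate number, although these numbers were not taken to pair Bmal1-/- mice). In the third decile, with 21.7% clustered, the values were 71% ± 1.01 and 82.2% ± 4.20, the highest of the 10 in Bmal1-/-. In the last, with 20.9%, they were 71.9% ± 1.41, the highest in wild type, and 77.7% ± 5.23. The order of the signal thus did not follow the order of the share outside the first decile. Over the 10 deciles the wild-type signal had a Pearson correlation of -0.611 with the percent clustered, and 0.158 without the first, given as a description because the deciles share libraries and differ in list position.

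Per library, the slope of relative central signal on percent clustered was tested over mice. In wild type it was -0.297 ± 0.130 (SD, n = 4 series) percentage points per percentage point clustered, in Bmal1-/- -0.0660 ± 0.157 (n = 4), a difference of 0.231 (exact two-sided permutation test, p = 0.0857, smallest p allowed 0.0286). Series values ran from -0.445 to -0.136 in wild type and from -0.276 to 0.102 in Bmal1-/-, so the groups overlapped. The lowest Bmal1-/- value, -0.276, was that of series 8. Replicate numbers were not taken to pair Bmal1-/- mice, so the SD and the p-value rest on a grouping by number in that genotype. Without the first decile of the list the difference was -0.0993 (exact permutation p = 0.429), of opposite sign.

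In wild type the slope was steeper in the light (ZT02, ZT06, ZT10) than in the dark (ZT14, ZT18, ZT22), at -0.543 ± 0.308 (n = 12) and -0.0505 ± 0.252 (n = 12), a difference of -0.492 (two-sided permutation test, p = 0.00036). That test treats mice that share a replicate number as independent, although in wild type the numbers were taken to pair mice across times. All 12 light values were below 0, from -1.05 to -0.0684, and dark values ran from -0.563 to 0.345, so mice of the 2 phases overlapped. Within the replicate block the difference was the same and below 0 in 4 of 4 series, where the exact sign-flip permutation test can give no p below its value of 0.125. Without the first decile it was -0.0685 (permutation p = 0.747), and with the decile number as a second term -0.177 (p = 0.0845). In Bmal1-/- the slopes were -0.119 ± 0.267 (n = 12) in the light and 0.0115 ± 0.286 (n = 11) in the dark (difference -0.131, permutation p = 0.266), and without the first decile the difference was -0.266 (permutation p = 0.195). The relation in wild type therefore rests on the first decile, which differs from the others in list position and peak width as well as in clustering, and these cannot be told apart in set averages.

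**Figure D5:**
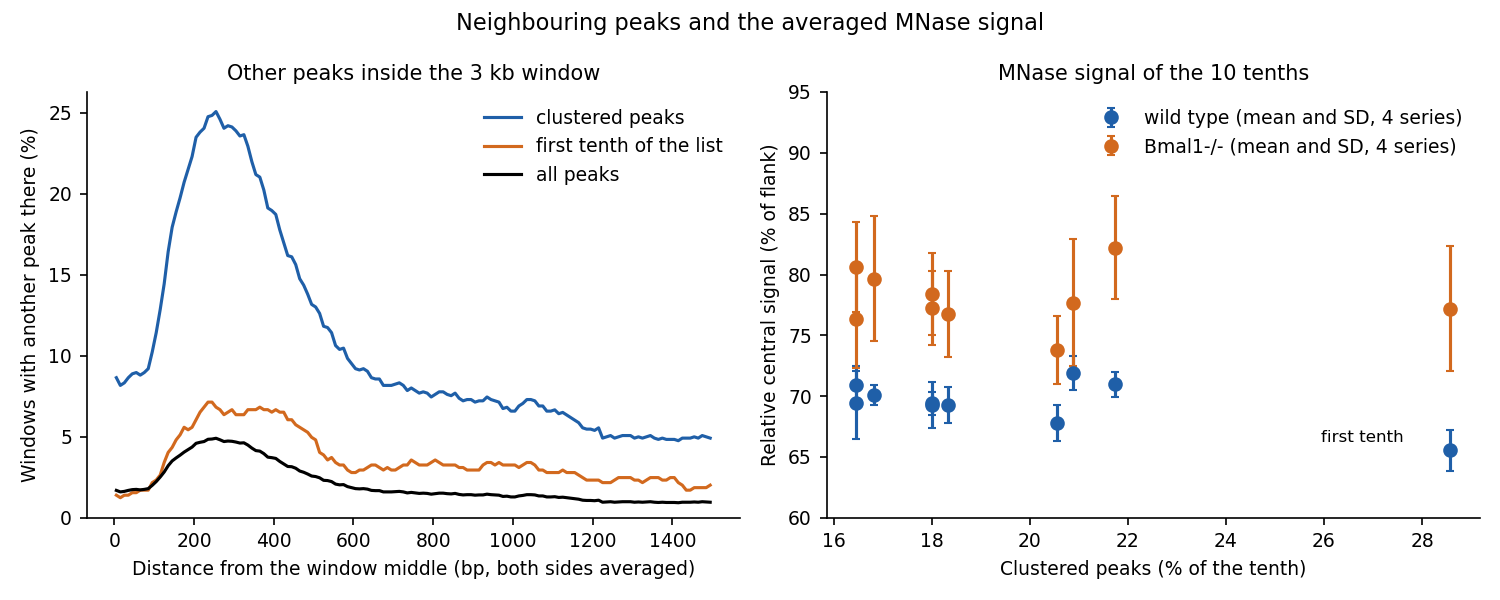
Left, percent of windows in which another peak of the list covers a position, by distance from the window middle in bp (both sides averaged), for clustered peaks, the first decile and all peaks; clustered windows peak near 255 bp. Right, relative central signal (percent of flank, axis from 60) of the 10 deciles against the percent clustered, mean and SD of 4 series per genotype; the first decile stands apart at 28.6% clustered, with wild type at 65.5% and Bmal1-/- at 77.2%.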

How the data were processed

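The deposited peak list gives, per the file headers, the start and end of each CLK:BMAL1 ChIP-seq peak and of a 3 kb window around its middle, with 1 genomic class. The second deposited table holds MNase signal, which the authors averaged over 27 peak sets for each of 47 libraries, as 300 values 10 bp apart. The submitters' processing notes name CASAVA 1.7, Bowtie (no version given) and mm9. The sources used here state neither the scaling of the signal nor the caller of the peaks. The main comparisons used the centre in percent of the flank of the same library, which cancels a scaling factor of the library. As an alternative the slopes were also taken from the central signal on the scale of the authors, which does not cancel it. Library depth was not used, and no counting interval is given for the signal. The all-peak set is named for 3216 peaks and the list holds 3217. Deciles of the list were cut here in file order and matched to the authors' 10 sets by number. Those sets are named for 322 peaks each, more in sum than the list holds, so they cannot be exactly the runs of 321 or 322 entries used here, and every signal by decile rests on this approximate match.

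The members and lists were chosen with earlier results of these data known. Peak width is end minus start. Clusters, gaps, classes, widths and positions were computed in Python 3.11.15 with pandas 2.3.3 and scipy 1.17.1, and the functions were tested on simulated data. Shares carry exact binomial (Clopper-Pearson) and differences of shares Newcombe 95% intervals. Both treat peaks or pairs as independent although those of a cluster share their locus, so both are too narrow as statements on loci. For differences of medians, the interval of the clustered median was shifted by the median of the other peaks. Regions named are the 5 clusters with most peaks, the 10 whose best peak stands earliest, the 3 closest and 3 widest pairs inside the rule, the 3 just outside, and the chromosomes with the highest and lowest share. Joining touching peaks, leaving out each chromosome and leaving out the first decile were added after the data were seen. Light and dark slopes were compared with 100000 resamples. Whether the replicate number pairs mice across times was checked by correlating the light and dark deviations of each number from the mean of the same genotype, time and peak set. In wild type these were 0.267, 0.300, 0.238 and 0.269 (highest with another number 0.0705, 0.231, 0.244 and 0.208, so series 26 correlated slightly more with another), all above 0.1, and the numbers were taken to pair by that limit. In Bmal1-/- the correlations were 0.317, 0.324, 0.409 and 0.0384 (highest with another number 0.111, 0.0701, 0.153 and 0.282). The last of them, that of series 10, was below 0.1, and the Bmal1-/- numbers were not taken to pair. Each library is 1 mouse per the labels. A search for E-boxes was planned only with an mm9 genome and was not run.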

Additional observations from a re-analysis of the deposited data

Results flagged for a closer look

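The light minus dark difference of the slope of relative central signal on percent clustered differed between the genotypes. It was -0.492 in wild type (4 of 4 series below 0, from -0.634 to -0.410) and -0.114 in Bmal1-/- (4 of 4 series below 0, from -0.153 to -0.0709), a difference of 0.378 (exact two-sided permutation test of 4 against 4 series, p = 0.0286, the smallest this design allows). These differences were taken within replicate numbers, which were not taken to pair in Bmal1-/-. Over single mice the Bmal1-/- difference was -0.131, with SDs of 0.267 in the light and 0.286 in the dark. Without the first decile of the list the difference was -0.184 (exact permutation p = 0.371), and with the decile number as a second term 0.0498 (p = 0.4). A search for series or mice far from the rest of their group examined 13 groups and found 0, where chance alone marks about 5% of groups.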

How the results depend on the processing

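Clustering depends on the rule. With windows overlapping by at least 1500 bp 15.5% of peaks were clustered at a median distance of 335 bp, with 6 kb windows 25.1% at 877.5 bp, and in the earlier 50% of the list alone 12.4%, where the intron difference was -4.68 percentage points. For that last setting the later peaks were dropped and the rule applied anew. Peaks whose only partners stood later then no longer counted as clustered, which lowers the share by itself. With touching peaks joined the share was 12.9%, the distance 1055 bp, the same class was found in 76.3% of pairs, the width difference was 20 bp and that of intergenic peaks beyond 10 kb -7.73 points. With 1 peak a cluster, the earliest, the width difference was 30 bp and the position difference -855, as choosing the earliest brings about. Counting only middles of other peaks, the flank held one in 0.0314% of windows per 10 bp. Leaving out each chromosome in turn kept the intergenic differences between 2.09 and 4.85 within 10 kb and between -4.97 and -2.47 beyond. The genotype difference of the slope turned to -0.0993 without the first decile. The wild-type light minus dark slope lost its call without the first decile (-0.0685) and with the decile number as a second term (-0.177). With the replicate block it stayed at -0.492, and the exact sign-flip permutation test there can give no p below its value of 0.125. For Bmal1-/- the replicate block gave -0.114 (exact sign-flip permutation p = 0.125, again the smallest that test allows). Leaving out 1 replicate number at a time gave 0.175 to 0.301 for the genotype, -0.520 to -0.445 for wild type and -0.146 to -0.104 for Bmal1-/-. The other 199 values under alternatives moved by less than their spread or stayed on their side of the threshold. Some of their intervals nevertheless changed against 0. For the difference within 10 kb the interval held 0 in the earlier 50% of the list (4.05, -0.233 to 9.59) and without chromosome 7 (2.09). Beyond 10 kb it held 0 with window overlaps of at least 500 bp (-2.81, -6.24 to 0.938) and in the earlier 50% of the list (-3.80, -9.01 to 2.46). It also did so in the settings named with the classes. The TSS interval lay below 0 with 6 kb windows (-3.40). The number of peaks limits the precision of every share.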
